A study of Mus musculus with 24 samples.

Results

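Ribosome biogenesis factors are the proteins that process, modify, fold and export the precursors of the ribosomal subunits. The 55 genes described here were chosen by symbol from the 32719 genes in each count file: 8 encode proteins of the small nucleolar ribonucleoproteins (snoRNPs) or their chaperone, 4 encode general nucleolar proteins, 21 encode factors of the small ribosomal subunit and 22 encode factors of the large subunit. The rule reads symbols and no measured value, although earlier results of these data were known when the set was drawn up. All 55 passed the filter on low counts that left 15599 genes for testing.

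Ribosomal RNA is transcribed in the nucleolus by RNA polymerase I as one long precursor. SnoRNPs carry guide RNAs that direct methylation and pseudouridylation of that precursor, the small subunit processome assembles on its leading end and releases the pre-small subunit, and a separate set of helicases, GTPases and scaffold proteins builds the pre-large subunit around the rest. Growth factor signaling through PI3K, mTORC1 and MYC is known to raise ribosome production in many cell types.

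The cells were cortical astrocytes in primary culture from newborn mouse pups with floxed insulin receptor alleles (IR f/f), collected at day 14 in vitro. IRKO cells had been infected with an adenovirus for a Cre:GFP fusion. IRflox cells had received an adenovirus for GFP alone, so genotype and virus go together. Both were used 5 days after infection, starved of serum overnight in medium with BSA, and kept for 6 h with insulin or with IGF-1, each at 100 nM, or with vehicle (Ctrl). Each of the 6 groups had 4 libraries, 24 in all, with 15429688 to 19010986 gene counts per library. The labels do not say whether replicates were separate cultures, and the p-values below rest on the variation among these libraries, technical or not.

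Counts of Insr, the targeted gene, were reduced and not absent in IRKO libraries: they averaged 40.4 ± 2.47 CPM (read counts scaled to the library total) in IRKO and 61.6 ± 3.601 CPM in IRflox astrocytes under vehicle (SD, n = 4 each). Reads were counted over the whole gene, so these values do not measure how much intact transcript or receptor was left. The astrocyte genes Aqp4, Slc1a3 and Gfap averaged 1162, 1347 and 687 CPM over the 24 libraries, while S100b and Ntsr2 averaged 2.93 and 4.44 CPM. The neuronal markers Rbfox3 and Snap25 averaged 0.164 and 0.0929 CPM, but the neuronal genes Stmn2 and Map2 averaged 77.4 and 55.7 CPM. The endothelial marker Cldn5 had no count in 23 libraries, and Flt1 and Kdr averaged 4.34 and 3.26 CPM. Microglial genes were present, with Csf1r at 266 CPM. So were oligodendrocyte lineage genes, with Olig1 at 166 and Olig2 at 97.2 CPM. Fibroblast and mural genes were present too, with Acta2 at 127 and Col1a2 at 93.5 CPM. In bulk cultures like these, a change in the share of a cell type and a change in RNA per cell cannot be told apart.

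Insulin and IGF-1 raised nearly every member in both genotypes. In IRKO astrocytes 53 of 55 rose with insulin and 54 with IGF-1, and in IRflox astrocytes 54 rose with insulin and 55 with IGF-1, by edgeR at an adjusted p under 0.05. No member was called lower in any of these 4 comparisons. Over all 15599 genes the shares called higher were 24.7% and 26.9% in IRKO and 24.3% and 26.4% in IRflox astrocytes, and those called lower were 21.7% and 25.1% in IRKO and 21.4% and 24.4% in IRflox astrocytes. The median log2 change of the members was 0.52 with insulin and 0.64 with IGF-1 in IRKO astrocytes and 0.55 and 0.62 in IRflox astrocytes, against 0.01, 0.00, 0.00 and 0.00 over all genes tested. The insulin and IGF-1 comparisons of one genotype share its vehicle libraries.

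The treated and vehicle libraries were also well separated member by member. In IRKO astrocytes the 4 treated libraries lay above all 4 vehicle libraries for 51 members with insulin and 54 with IGF-1, and in IRflox astrocytes for 53 and 54. The same held for 20.5%, 23.6%, 20.1% and 22.6% of all genes. Summed over the 55 members, CPM was 4337 ± 68.5 under insulin, 4671 ± 70.6 under IGF-1 and 3052 ± 14.9 under vehicle in IRKO astrocytes (SD, n = 4 each). In IRflox astrocytes the sum was 4634 ± 75.9, 4951 ± 195 and 3163 ± 114 CPM under the same treatments. The median member of each treated library was between 0.47 and 0.69 log2 units above its genotype's vehicle mean.

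Markers of other cell types moved with treatment too. Of 10 microglial genes, 8 fell with insulin and 8 with IGF-1 in IRKO astrocytes, and 7 and 5 in IRflox astrocytes. Over all genes 21.4% to 25.1% were called lower in these comparisons. The summed level of 8 oligodendrocyte lineage genes was 371 to 377 CPM under insulin, 401 to 434 CPM under IGF-1 and 263 to 281 CPM under vehicle in IRKO libraries. In IRflox libraries it was 319 to 355, 362 to 392 and 242 to 265 CPM. The sum was above vehicle without overlap, and 2 or 3 of its 8 genes rose in each comparison, Olig1 and Olig2 in all 4. Over all genes 24.3% to 26.9% were called higher in these comparisons. Most of the sum came from Olig1 and Olig2, at means of 195 and 101 CPM of 374 CPM in IRKO insulin libraries. The means of Cspg4 and Mbp went the other way. Cspg4 averaged 22.5, 21.1 and 24.5 CPM and Mbp 5.95, 5.82 and 7.49 CPM under insulin, IGF-1 and vehicle in IRKO libraries. In IRflox libraries Cspg4 averaged 19.9, 16.5 and 22.4 CPM and Mbp 5.16, 4.65 and 6.88 CPM. The defining markers Mog and Sox10 had no count in 3 and 2 libraries. The sum of 8 neuronal genes was 136 to 144, 137 to 147 and 117 to 129 CPM in IRKO libraries and 162 to 171, 158 to 169 and 138 to 139.6 CPM in IRflox libraries under insulin, IGF-1 and vehicle. Stmn2 and Map2, which had the highest means of these genes, did not move together. In the same order, Stmn2 averaged 75.1, 81.3 and 60.5 CPM and Map2 49.0, 45.7 and 52.6 CPM in IRKO libraries. In IRflox libraries Stmn2 averaged 86.8, 93.2 and 67.5 CPM and Map2 67.4, 56.7 and 62.4 CPM. Tubb3, at a lower level, averaged 11.9, 12.5 and 4.26 CPM in IRKO and 9.31, 11.2 and 4.13 CPM in IRflox libraries. The means of Syp and Syt1 were lower under insulin and IGF-1 than under vehicle in both genotypes. The part of these other cell types in the members' rise was not tested.

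**Figure D1:**
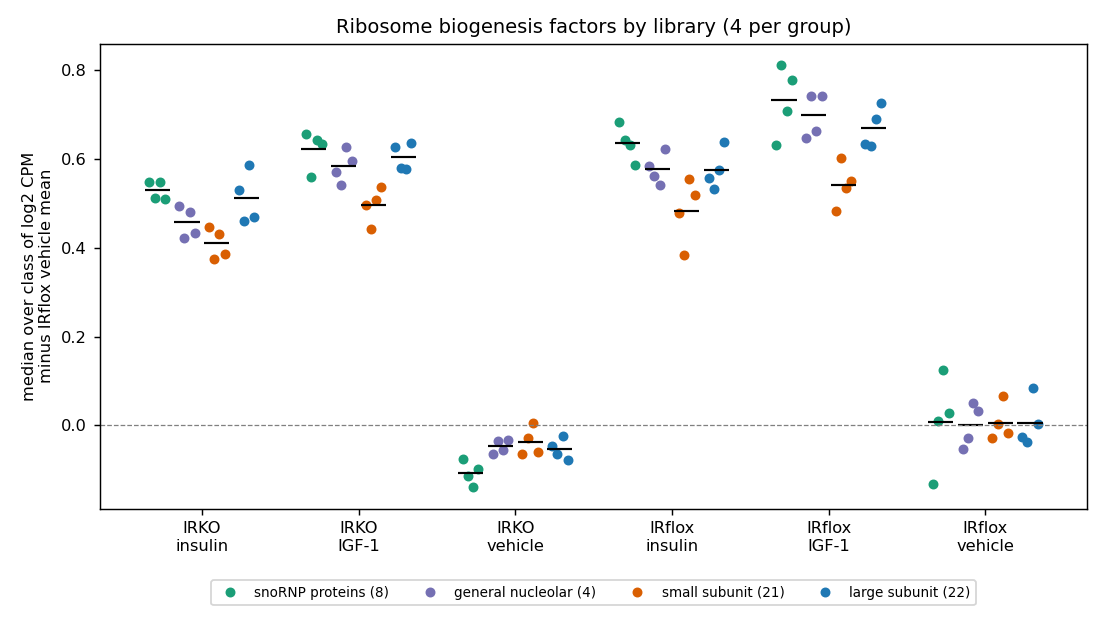
Median log2 CPM of each class of members relative to the IRflox vehicle mean (y axis) in each of the 24 libraries, by group (x axis). Points are libraries and lines are means of 4 libraries. All insulin and IGF-1 libraries lie above all vehicle libraries in each of the 4 classes.

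Because the members rose together, their promoters were searched for the E-box CACGTG, which MYC and other basic helix-loop-helix proteins are known to bind. The RefSeq windows on GRCm38.p6 run from 250 bases before to 50 bases after a gene's start. They were at hand for 49 members and 11604 tested genes, and not for Bop1, Fbl, Gnl2, Npm1, Rrp12 and Rrs1. The E-box, which reads the same on both strands, was in the windows of 12 members (24.5%) and of 1303 tested genes (11.2%). The windows with one belonged to 7 of 20 small subunit, 4 of 19 large subunit, 1 of 3 general and 0 of 7 snoRNP members. In 9 of the 12 member sites (75%) the E-box began after the annotated start, as did 13.4% of the 1560 sites over all tested genes.

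The 5 members with an E-box and the largest mean response are shown in stretches of 30 bases, 5′ to 3′ on the gene's strand, with the 6 letters of the E-box in capitals. They show the spread of positions, from 60 bases before to 41 bases after the start.
Grwd1: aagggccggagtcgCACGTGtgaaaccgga
Nop2: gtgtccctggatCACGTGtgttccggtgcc
Tsr1: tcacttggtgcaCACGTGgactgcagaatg
Nle1: tcggttctcctcCACGTGgggacgcaggat
Mybbp1a: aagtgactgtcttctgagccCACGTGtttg
The next 4 stretches come from small subunit factors whose E-box begins 18 to 38 bases after the start. That of Utp18, which begins 20 bases before the start, is not shown.
Utp20: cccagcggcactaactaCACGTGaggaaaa
Ltv1: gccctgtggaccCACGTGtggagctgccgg
Wdr43: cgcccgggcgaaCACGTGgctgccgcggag
Pno1: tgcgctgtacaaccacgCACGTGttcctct
Pes1 and Imp4, among the members with the smallest responses, held the same 6 letters.
Pes1: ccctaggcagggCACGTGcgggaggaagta
Imp4: acggtcttagacCACGTGacatcccaaatc

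These stretches lie, in the order shown, at chr7:45830740-45830769 (Grwd1, minus strand), chr6:125131811-125131840 (Nop2, plus strand), chr11:74898092-74898121 (Tsr1, plus strand), chr11:82908355-82908384 (Nle1, minus strand), chr11:72441347-72441376 (Mybbp1a, plus strand), chr10:88826765-88826794 (Utp20, minus strand), chr10:13193092-13193121 (Ltv1, minus strand), chr17:71616220-71616249 (Wdr43, plus strand), chr11:17211540-17211569 (Pno1, minus strand), chr11:3963965-3963994 (Pes1, plus strand) and chr1:34439696-34439725 (Imp4, plus strand). The mean log2 response over the 4 comparisons with vehicle had a median of 0.56 in the 12 members with an E-box and 0.60 in the 37 without. Within the subunit classes the order was the other way, at 0.51 with and 0.46 without among small subunit factors and 0.68 with and 0.61 without among large subunit factors, and no snoRNP window held an E-box. These are medians with no test.

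The whole 250 bases before the start of Nop2, chr6:125131633-125131882 on the plus strand, show the setting of one such site in capitals.
Nop2 promoter: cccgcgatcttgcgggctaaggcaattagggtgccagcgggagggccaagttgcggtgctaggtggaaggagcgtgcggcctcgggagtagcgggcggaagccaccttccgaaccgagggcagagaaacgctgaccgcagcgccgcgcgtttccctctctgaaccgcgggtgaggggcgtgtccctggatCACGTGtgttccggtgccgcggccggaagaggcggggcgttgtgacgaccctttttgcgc
Other letters were searched on both strands after the E-box result was seen. The ETS-type CCGGAAG was in 38.8% of member windows and 18.3% of all windows, GCATGCGC of NRF1 in 6.12% and 5.54%, and the SP1-type GGGCGGG in 44.9% and 49.9%. A match is a description of letters and not of binding.

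The box C/D snoRNP proteins had the largest responses of any subclass, with median log2 changes of 0.71 with insulin and 0.89 with IGF-1 in IRKO astrocytes and 0.78 and 0.93 in IRflox astrocytes. Nop58 (chromosome 1, 59684971 to 59719044, plus strand on mm10) encodes, with Nop56, the scaffold of these particles. Nop58 in IRKO astrocytes was at 103, 98.4, 100.4 and 107 CPM with insulin, 118, 111, 113 and 119 CPM with IGF-1 and 60.5, 54.1, 54.8 and 52.5 CPM with vehicle. In IRflox astrocytes Nop58 was at 111, 109, 118 and 128 CPM with insulin, 117, 131, 121 and 141 CPM with IGF-1 and 52.1, 61.3, 66.3 and 61.9 CPM with vehicle. Every treated library lay above every vehicle library, and in IRKO astrocytes the 4 insulin libraries also lay below the 4 IGF-1 libraries. Nop58 had log2 changes of 0.88 (SE 0.059) with insulin and 1.06 (SE 0.059) with IGF-1 in IRKO astrocytes, and of 0.95 (SE 0.059) and 1.08 (SE 0.059) in IRflox astrocytes, with the largest edgeR adjusted p of the 4 at 4.98e-16. Nop56 changed by 0.71 and 0.89 in IRKO astrocytes and 0.78 and 0.93 in IRflox astrocytes. Fbl, the methyltransferase of the same particles, changed by 0.67 and 0.79 in IRKO astrocytes and 0.62 and 0.75 in IRflox astrocytes (largest edgeR adjusted p over both genes 1.59e-13).

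The 4 H/ACA proteins spread more widely. Dkc1 (dyskerin, chromosome X, 75095854 to 75109777, plus strand) is the pseudouridine synthase of the particle, and Gar1, Nhp2 and Nop10 are its partners. The IRKO values of Dkc1 were 47.7, 42.5, 48.5 and 46.4 CPM with insulin, 51.9, 47.4, 50.8 and 47.7 CPM with IGF-1 and 26.9, 24.7, 24.9 and 24.2 CPM with vehicle. Dkc1 in IRflox astrocytes was at 50.03, 51.6, 49.99 and 52.6 CPM with insulin, 51.6, 53.6, 49.8 and 54.6 CPM with IGF-1 and 24.9, 29.3, 28.3 and 32.4 CPM with vehicle. The treated libraries were above the vehicle libraries without overlap in both genotypes. Dkc1 had log2 changes of 0.88 (SE 0.061) with insulin and 0.98 (SE 0.061) with IGF-1 in IRKO astrocytes, and of 0.83 (SE 0.061) and 0.87 (SE 0.060) in IRflox astrocytes (largest edgeR adjusted p 6.37e-15). Nhp2 changed by 0.49 and 0.63 in IRKO astrocytes and 0.48 and 0.60 in IRflox astrocytes, and Gar1 by 0.47 and 0.54 in IRKO astrocytes and 0.41 and 0.52 in IRflox astrocytes. Nop10 had the smallest response of the class, 0.30 and 0.38 in IRKO astrocytes and 0.34 and 0.42 in IRflox astrocytes. These 3 genes passed edgeR's test in all 4 comparisons, with the largest adjusted p at 0.0172. Nop10 libraries overlapped vehicle under insulin in both genotypes and under IGF-1 in IRflox astrocytes.

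Leaving out 1 library could end these insulin calls. In IRflox astrocytes the log2 changes that no longer passed were 0.29 for Gar1 without insulin replicate 1 and 0.21 for Nop10 without vehicle replicate 2. In IRKO astrocytes Nop10 did not pass at 0.25, 0.25 and 0.26 without vehicle replicate 2, vehicle replicate 3 and insulin replicate 4. Nolc1, a chaperone of snoRNPs that shuttles between nucleolus and Cajal bodies, changed by 0.66 and 0.74 in IRKO astrocytes and 0.65 and 0.71 in IRflox astrocytes (largest edgeR adjusted p 2.56e-16).

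The 4 general nucleolar proteins all rose in each comparison, and the class medians were 0.53 with insulin and 0.66 with IGF-1 in IRKO astrocytes and 0.58 and 0.70 in IRflox astrocytes. Npm1 (nucleophosmin, chromosome 11, 33152287 to 33163206, minus strand), a chaperone of histones and ribosomal proteins, had the highest level per exon length of the 55 (the mouse genome holds processed copies of Npm1, and how reads matching several places were counted is not given in the sources used here), a mean of 86.9 CPM per kb in the IRflox vehicle libraries. In IRKO astrocytes Npm1 was at 329, 300.5, 324 and 325 CPM with insulin, 343, 341, 368 and 365 CPM with IGF-1 and 227, 211, 222 and 231 CPM with vehicle. The IRflox values of Npm1 were 339.9, 338, 329.9 and 357 CPM with insulin, 372, 393, 366 and 400.3 CPM with IGF-1 and 213, 225, 249.6 and 239.7 CPM with vehicle. The groups under treatment and vehicle did not overlap, and insulin libraries were below IGF-1 libraries in both genotypes. Npm1 had log2 changes of 0.52 (SE 0.043) with insulin and 0.67 (SE 0.043) with IGF-1 in IRKO astrocytes, and of 0.56 (SE 0.043) and 0.72 (SE 0.043) in IRflox astrocytes (largest edgeR adjusted p 3.03e-13). Ncl (nucleolin), next in level per exon length at 46.2 CPM per kb in the same libraries, rose less, by 0.38 and 0.44 in IRKO astrocytes and 0.45 and 0.51 in IRflox astrocytes (largest edgeR adjusted p 9.13e-11). This order rests on the exon length, which joins all annotated transcripts of a gene and is 10188 bases for Ncl and 2665 for Npm1. Unscaled, Ncl was the higher, at a mean of 471 CPM against 232 CPM for Npm1 in those libraries. Ddx21, a helicase of rRNA transcription and processing, changed by 0.71 and 0.83 in IRKO astrocytes and 0.79 and 0.86 in IRflox astrocytes. Mybbp1a, a nucleolar binding partner of transcription factors, changed by 0.54 and 0.65 in IRKO astrocytes and 0.60 and 0.67 in IRflox astrocytes. The largest edgeR adjusted p over Ddx21 and Mybbp1a was 2.62e-16.

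The small subunit factors held both strong and weak responders. The class medians were 0.45 with insulin and 0.55 with IGF-1 in IRKO astrocytes and 0.48 and 0.52 in IRflox astrocytes, and 19 of 21 rose with insulin and 20 with IGF-1 in IRKO astrocytes, against 20 and 21 in IRflox astrocytes. Rrp12 (chromosome 19, 41862851 to 41896173, minus strand), known from yeast for its part in export of pre-ribosomes, led the class. Rrp12 in IRKO astrocytes was at 47.7, 50.8, 51.4 and 49.4 CPM with insulin, 59.6, 58.4, 64.98 and 58.6 CPM with IGF-1 and 26.4, 27.2, 28.5 and 24.5 CPM with vehicle. In IRflox astrocytes Rrp12 was at 50.3, 50.8, 52.8 and 48.1 CPM with insulin, 51.3, 55.4, 53.04 and 61.9 CPM with IGF-1 and 27.9, 27.4, 26.9 and 28.4 CPM with vehicle. No treated library overlapped a vehicle library, and the IGF-1 libraries of IRKO astrocytes lay above the insulin libraries of the same genotype. Rrp12 had log2 changes of 0.90 (SE 0.058) with insulin and 1.18 (SE 0.057) with IGF-1 in IRKO astrocytes, and of 0.87 (SE 0.058) and 1.00 (SE 0.058) in IRflox astrocytes (largest edgeR adjusted p 5.09e-16).

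Heatr1, Utp15, Wdr43 and Wdr75 belong to the UTP-A group, which in yeast is the first to bind the precursor. Heatr1 (chromosome 13, 12395027 to 12440289, plus strand) changed by 0.66 and 0.78 in IRKO astrocytes and 0.70 and 0.79 in IRflox astrocytes (largest edgeR adjusted p 1.62e-14). Wdr75 changed by 0.48 and 0.56 in IRKO astrocytes and 0.56 and 0.56 in IRflox astrocytes and Wdr43 by 0.43 and 0.55 in IRKO astrocytes and 0.48 and 0.57 in IRflox astrocytes, each past edgeR's threshold in the 4 comparisons. Utp15 (chromosome 13, 98246845 to 98263041, minus strand) stood apart from these 3. The IRKO values of Utp15 were 31.998, 26.2, 30.8 and 29.7 CPM with insulin, 27.9, 34.8, 31.6 and 32.1 CPM with IGF-1 and 31.1, 30.1, 28.05 and 26.5 CPM with vehicle. Utp15 in IRflox astrocytes was at 32.3, 30.6, 34.6 and 33.01 CPM with insulin, 33.4, 35.8, 34.1 and 37.2 CPM with IGF-1 and 29.9, 25.8, 27.3 and 28.7 CPM with vehicle. In IRKO astrocytes the treated and vehicle libraries overlapped, and in IRflox astrocytes they did not. Utp15 had log2 changes of 0.04 (SE 0.069) with insulin and 0.13 (SE 0.069) with IGF-1 in IRKO astrocytes, and of 0.22 (SE 0.069) and 0.33 (SE 0.069) in IRflox astrocytes. The edgeR adjusted p was 0.695 and 0.128 in IRKO astrocytes and 0.00762 and 9.17e-05 in IRflox astrocytes. Without IGF-1 replicate 1 of IRKO, the IGF-1 change of Utp15 was 0.18 and passed (adjusted p = 0.0402). The difference between genotypes in the response of Utp15 was -0.19 (SE 0.098, edgeR adjusted p = 0.922) for insulin and -0.20 (SE 0.097, edgeR adjusted p = 0.935) for IGF-1.

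In the UTP-B group, which binds after UTP-A in yeast, Pwp2 changed by 0.83 and 1.01 in IRKO astrocytes and 0.87 and 1.03 in IRflox astrocytes and Utp18 by 0.52 and 0.58 in IRKO astrocytes and 0.35 and 0.50 in IRflox astrocytes (largest edgeR adjusted p 1.9e-05). Among the proteins that work with the U3 snoRNA, Rrp9, which binds U3 itself, changed by 0.87 and 0.96 in IRKO astrocytes and 0.77 and 0.99 in IRflox astrocytes (largest edgeR adjusted p 3.76e-12). Imp3 and Imp4, which in yeast help U3 pair with the precursor, were near the bottom of the 55. Imp3 (chromosome 9, 56937475 to 56938398, plus strand) was the only member with a negative log2 change in any comparison with vehicle. In IRKO astrocytes Imp3 was at 21.7, 22.2, 23.1 and 21.2 CPM with insulin, 23.5, 22.1, 20.8 and 26.3 CPM with IGF-1 and 19.4, 16.3, 20.3 and 19.9 CPM with vehicle. The IRflox values of Imp3 were 19.02, 20.6, 24.4 and 21.8 CPM with insulin, 25.96, 26.9, 28.3 and 26.5 CPM with IGF-1 and 19.98, 24.6, 24.7 and 21.7 CPM with vehicle. In IRflox astrocytes the insulin libraries overlapped the vehicle libraries and lay below the IGF-1 libraries. Imp3 had log2 changes of 0.22 (SE 0.082) with insulin and 0.29 (SE 0.082) with IGF-1 in IRKO astrocytes, and of -0.08 (SE 0.082) and 0.24 (SE 0.079) in IRflox astrocytes. The edgeR adjusted p was 0.0265 and 0.00315 in IRKO and 0.432 and 0.00918 in IRflox astrocytes.

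The Imp3 call with insulin in IRKO astrocytes was lost without vehicle replicate 2 (log2 change 0.14), insulin replicate 2 (0.21) or insulin replicate 3 (0.18). Its call with IGF-1 in IRflox astrocytes was lost without vehicle replicate 1 (0.18). Imp4 changed by 0.20 and 0.25 in IRKO astrocytes and 0.17 and 0.22 in IRflox astrocytes (edgeR adjusted p 0.00214, 9.73e-05, 0.00742 and 0.000582 in that order). Its insulin call in IRflox astrocytes was lost without vehicle replicate 2, at a log2 change of 0.12.

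The other processome factors covered the same range. Nop9, an RNA-binding repeat protein, rose by 0.55 and 0.77 in IRKO astrocytes and 0.67 and 0.93 in IRflox astrocytes. Nop9 shares 29.9% of its exon length with Cideb on the opposite strand, so some of its reads cannot be assigned with certainty. Utp20, a large scaffold protein, changed by 0.48 and 0.63 in IRKO astrocytes and 0.58 and 0.62 in IRflox astrocytes. Noc4l and Nop14, which form a complex in yeast, differed in size, with 0.45 and 0.50 in IRKO astrocytes and 0.53 and 0.63 in IRflox astrocytes for Noc4l and 0.20 and 0.26 in IRKO astrocytes and 0.21 and 0.28 in IRflox astrocytes for Nop14. Nat10, an RNA acetyltransferase, changed by 0.45 and 0.44 in IRKO astrocytes and 0.35 and 0.45 in IRflox astrocytes. The largest edgeR adjusted p over these 5 genes was 0.000579.

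Bms1, a GTPase of the processome, had log2 changes of 0.11 and 0.21 in IRKO astrocytes and 0.29 and 0.31 in IRflox astrocytes, and did not pass with insulin in IRKO astrocytes (edgeR adjusted p = 0.0619; without IRKO vehicle replicate 3 it changed by 0.13 and passed). The helicase Ddx10 had its smallest change in the same comparison. Ddx10 in IRKO astrocytes was at 38.3, 32.7, 33.8 and 33.9 CPM with insulin, 39.9, 36.05, 39.02 and 40.9 CPM with IGF-1 and 30.5, 27.96, 34.5 and 30.6 CPM with vehicle. In IRflox astrocytes Ddx10 was at 39.7, 36.8, 45.2 and 41.4 CPM with insulin, 37.5, 39.5, 40.1 and 46.3 CPM with IGF-1 and 29.7, 30.1, 30.5 and 30.3 CPM with vehicle. Insulin and vehicle libraries overlapped in IRKO astrocytes and were apart in IRflox astrocytes. Ddx10 had log2 changes of 0.17 (SE 0.069) with insulin and 0.34 (SE 0.068) with IGF-1 in IRKO astrocytes, and of 0.43 (SE 0.069) and 0.44 (SE 0.069) in IRflox astrocytes. The edgeR adjusted p with insulin in IRKO astrocytes was 0.0407, and the call was lost in 24 of the 31 alternatives, so it lies at the threshold. The difference between genotypes in the insulin response of Ddx10 was -0.27 (SE 0.097, edgeR adjusted p = 0.884).

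The 4 factors of late small subunit maturation were more alike. Nob1 (chromosome 8, 107412486 to 107425051, minus strand), the endonuclease that makes the last cut of the small subunit rRNA, responded less than most of the 55. The IRKO values of Nob1 were 32.7, 32.2, 32.3 and 31.7 CPM with insulin, 34.6, 32.5, 32.1 and 36.2 CPM with IGF-1 and 21.1, 23.6, 24.2 and 26.1 CPM with vehicle. Nob1 in IRflox astrocytes was at 33.3, 30.5, 28.8 and 34.2 CPM with insulin, 31.5, 33.4, 34.7 and 34.2 CPM with IGF-1 and 22.6, 23.1, 26.9 and 23.2 CPM with vehicle. Treated libraries lay above vehicle libraries without overlap. Nob1 had log2 changes of 0.44 (SE 0.067) with insulin and 0.51 (SE 0.067) with IGF-1 in IRKO astrocytes, and of 0.40 (SE 0.068) and 0.48 (SE 0.068) in IRflox astrocytes (largest edgeR adjusted p 4.1e-06). Its partner Pno1 changed by 0.41 and 0.41 in IRKO astrocytes and 0.40 and 0.45 in IRflox astrocytes. Ltv1 and Tsr1 are late factors of the pre-small subunit in yeast and human cells. Ltv1 changed by 0.50 and 0.60 in IRKO astrocytes and 0.52 and 0.52 in IRflox astrocytes and Tsr1 by 0.58 and 0.67 in IRKO astrocytes and 0.70 and 0.79 in IRflox astrocytes, and 32.3% of the Tsr1 exon length is shared with Srr on the opposite strand. The largest edgeR adjusted p over Pno1, Ltv1 and Tsr1 was 3.37e-08.

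All 22 large subunit factors rose in each of the 4 comparisons, with class medians of 0.55 with insulin and 0.65 with IGF-1 in IRKO astrocytes and 0.56 and 0.66 in IRflox astrocytes. Grwd1 (chromosome 7, 45825223 to 45830944, minus strand), whose yeast counterpart escorts a newly made large subunit protein, had the largest mean response of the 55. In IRKO astrocytes Grwd1 was at 33.2, 29.7, 33.01 and 32.1 CPM with insulin, 40.1, 36.4, 38.6 and 37.9 CPM with IGF-1 and 16.4, 14.5, 17.2 and 15.4 CPM with vehicle. The IRflox values of Grwd1 were 38.8, 36.3, 34.5 and 36.3 CPM with insulin, 36.9, 41.9, 42.7 and 41.8 CPM with IGF-1 and 18.8, 15.6, 20.1 and 17.1 CPM with vehicle. Treated and vehicle libraries did not overlap, and in IRKO astrocytes insulin libraries were below IGF-1 libraries. Grwd1 had log2 changes of 1.01 (SE 0.071) with insulin and 1.27 (SE 0.070) with IGF-1 in IRKO astrocytes, and of 1.02 (SE 0.070) and 1.18 (SE 0.069) in IRflox astrocytes (largest edgeR adjusted p 1.94e-15). Levels of Grwd1 under IGF-1 were 2.41-fold those under vehicle in IRKO and 2.27-fold in IRflox astrocytes. Its promoter stretch is the first of those shown above.

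Rrp15 (chromosome 1, 186720978 to 186749358, minus strand), a pre-large subunit factor in yeast, was second. Rrp15 in IRKO astrocytes was at 27.6, 24.9, 25.2 and 26.9 CPM with insulin, 29.6, 28.6, 27.3 and 28.7 CPM with IGF-1 and 13.8, 13.3, 13.7 and 13.5 CPM with vehicle. In IRflox astrocytes Rrp15 was at 27.9, 27.2, 25.9 and 28.5 CPM with insulin, 28.3, 32.6, 31.995 and 32.1 CPM with IGF-1 and 13.2, 12.8, 18.1 and 14.4 CPM with vehicle. The groups under treatment and vehicle were again apart in both genotypes. Rrp15 had log2 changes of 0.95 (SE 0.078) with insulin and 1.08 (SE 0.077) with IGF-1 in IRKO astrocytes, and of 0.90 (SE 0.077) and 1.09 (SE 0.076) in IRflox astrocytes (largest edgeR adjusted p 7.67e-13). The other assembly factors Nop16, Mrto4, Ebna1bp2, Rrp1b, Noc2l, Nle1, Nip7, Rrs1, Noc3l and Brix1 had mean log2 responses from 0.43 (Brix1) to 0.70 (Nop16). Rrs1, which in yeast helps place the small rRNA of the large subunit, had the third highest level per exon length at 42.4 CPM per kb in IRflox vehicle libraries and changed by 0.50 and 0.66 in IRKO astrocytes and 0.50 and 0.59 in IRflox astrocytes (largest edgeR adjusted p 1.42e-10). Noc2l shares 20.9% of its exon length with Samd11 on the opposite strand.

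Pes1, Bop1 and Wdr12 form the PeBoW complex, which is needed for large subunit rRNA processing in mouse and human cells. The 3 subunits did not respond by the same amount. The IRKO values of Pes1 were 96.3, 90.96, 93.6 and 92.4 CPM with insulin, 94.5, 95.9, 91.5 and 94.04 CPM with IGF-1 and 80.02, 77.1, 83.1 and 82.6 CPM with vehicle. Pes1 in IRflox astrocytes was at 93.5, 97.6, 89.5 and 95.2 CPM with insulin, 97.03, 102, 95.3 and 106 CPM with IGF-1 and 80.6, 77.02, 87.1 and 84.4 CPM with vehicle. Pes1 libraries were apart between treatment and vehicle, by a small margin. Pes1 had log2 changes of 0.21 (SE 0.043) with insulin and 0.22 (SE 0.043) with IGF-1 in IRKO astrocytes, and of 0.19 (SE 0.043) and 0.28 (SE 0.043) in IRflox astrocytes (largest edgeR adjusted p 0.000329). Bop1 changed by 0.54 and 0.61 in IRKO astrocytes and 0.45 and 0.60 in IRflox astrocytes and Wdr12 by 0.45 and 0.65 in IRKO astrocytes and 0.66 and 0.67 in IRflox astrocytes, with a largest edgeR adjusted p of 3.98e-07. Per exon length, Pes1 averaged 27.2, Bop1 16.01 and Wdr12 2.59 CPM per kb in the IRflox vehicle libraries. Unscaled they averaged 82.3, 47.3 and 30.9 CPM, and the annotated exons of Wdr12 cover 11955 bases against 3024 for Pes1. By both measures the subunit with the highest level had the smallest change.

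Among the enzymes, the rRNA methyltransferases Nop2 and Ftsj3 rose the most, by 0.67 and 0.80 in IRKO astrocytes and 0.65 and 0.80 in IRflox astrocytes for Nop2 and 0.63 and 0.73 in IRKO astrocytes and 0.69 and 0.76 in IRflox astrocytes for Ftsj3. The GTPase Gnl3 (nucleostemin), known from stem and tumor cells, changed by 0.58 and 0.64 in IRKO astrocytes and 0.55 and 0.65 in IRflox astrocytes, and the GTPase Gnl2 by 0.29 and 0.34 in IRKO astrocytes and 0.33 and 0.38 in IRflox astrocytes. Of the helicases, Ddx18 changed by 0.54 and 0.70 in IRKO astrocytes and 0.50 and 0.60 in IRflox astrocytes and Ddx56 by 0.56 and 0.60 in IRKO astrocytes and 0.53 and 0.56 in IRflox astrocytes. Ddx27 had the smallest response of the enzymes, 0.24 and 0.26 in IRKO astrocytes and 0.26 and 0.38 in IRflox astrocytes. The largest edgeR adjusted p over these 7 genes was 0.000309.

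**Figure D2:**
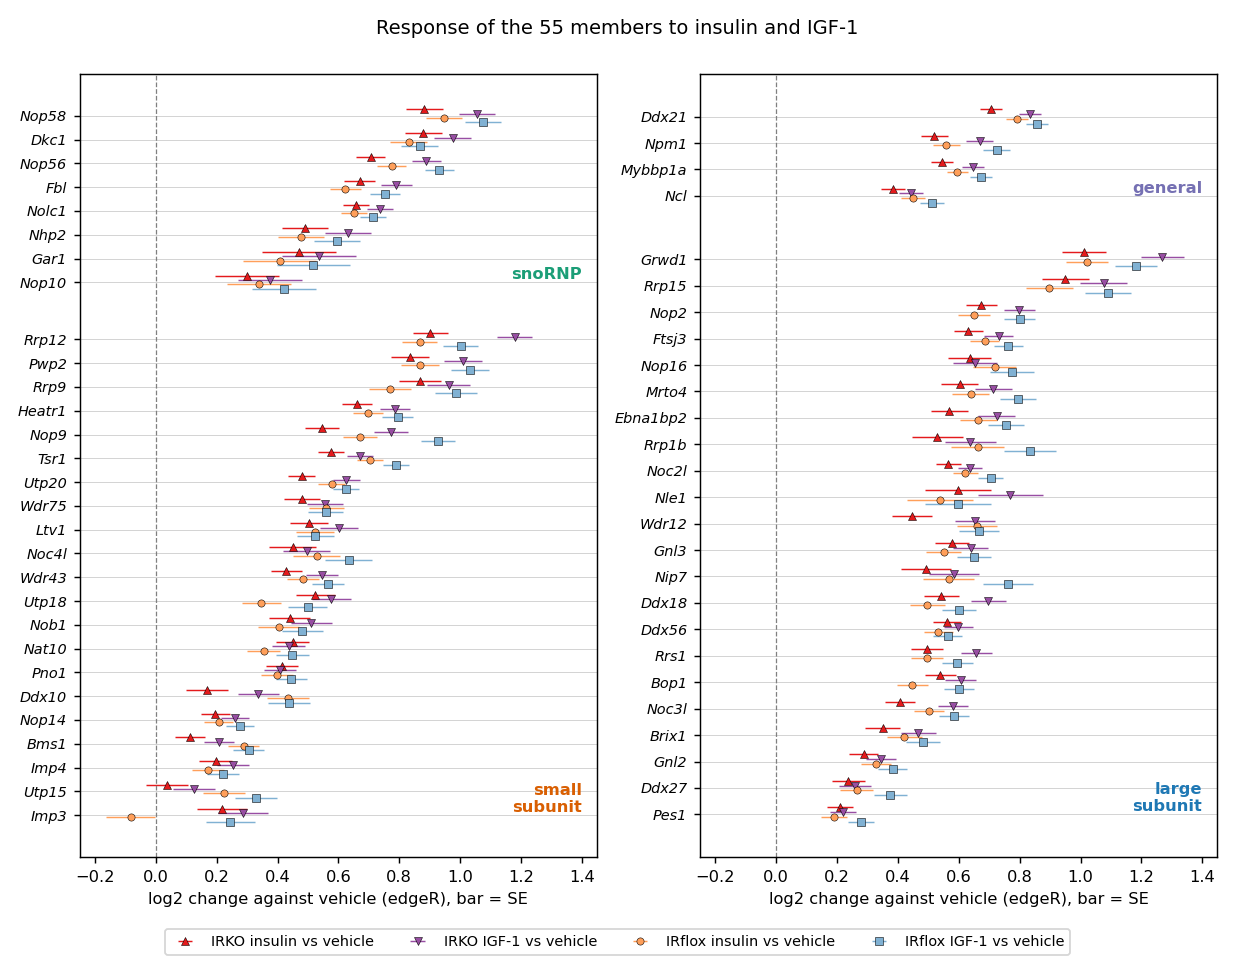
Log2 change of each of the 55 members with insulin and IGF-1 against vehicle (x axis, edgeR, bars are SE) in IRKO and IRflox astrocytes (4 libraries per group), ordered within each class by mean response. Grwd1, Rrp15, Nop58 and Rrp12 lie near 1, and Imp3, Utp15, Imp4 and Pes1 near 0.2.

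Among the 55 members, small subunit factors responded slightly less than large subunit factors at the median, and were more spread. The median log2 change of the small subunit class minus that of the large subunit class was -0.10 with insulin and -0.10 with IGF-1 in IRKO astrocytes, and -0.07 and -0.13 in IRflox astrocytes. In each of the 16 treated libraries, the small subunit median, taken against the vehicle mean of its genotype, was below the large subunit median, with differences of -0.18 to -0.02. Libraries of one genotype share that vehicle mean, and the smallest of these gaps, in IRflox astrocytes under insulin, lies within the range of -0.02 to 0.04 of the IRflox vehicle libraries. The mean responses ranged from 0.17 to 0.99 with an SD of 0.246 over the 21 small subunit genes, and from 0.22 to 1.12 with an SD of 0.200 over the 22 large subunit genes. Of the 10 largest mean responses 4 were of small and 2 of large subunit factors, and of the 10 smallest 6 were of small and 3 of large subunit factors. The shift of the medians is smaller than this spread within each class. In lists of 38 further small and 38 further large subunit factors the medians were not ordered this way throughout: they were 0.30 and 0.27 with insulin and 0.32 and 0.37 with IGF-1 in IRKO astrocytes, and 0.30 and 0.30 with insulin and 0.36 and 0.36 with IGF-1 in IRflox astrocytes.

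Leaving out Nop9, Tsr1 and Noc2l, which share exons, the difference of the medians with IGF-1 in IRKO astrocytes was -0.14, and with insulin in IRflox astrocytes it was -0.12. With insulin in IRflox astrocytes the difference was also -0.14 without vehicle replicate 4 and -0.14 without insulin replicate 3. The size of a member's mean response was only loosely related to its level or exon length. Across the 55 genes, which share all 24 libraries, Pearson's r was -0.17 with log2 CPM per kb in the IRflox vehicle group and 0.12 with log2 exon length.

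The order of the members was close to the same in the 2 genotypes, which share no library. Across the 55 members, the log2 changes in IRKO and IRflox astrocytes had a Pearson's r of 0.905 for insulin and 0.947 for IGF-1, against 0.767 and 0.812 across all genes tested. Genes are not independent replicates, and these values describe the libraries. The test of the difference between genotypes in the response called no member and no gene of the 15599 for insulin or for IGF-1 by edgeR (0% called). At an unadjusted p under 0.05, 5 members passed for insulin and 2 for IGF-1, beside 838 and 822 of all genes (5.37% and 5.27%), and DESeq2 called no member. The median difference of the members' responses was -0.04 for insulin and -0.01 for IGF-1. With insulin it ran from -0.27 (SE 0.097) for Ddx10 to 0.30 (SE 0.12) for Imp3. For IGF-1 it ran from -0.20 (SE 0.097) for Utp15 to 0.18 (SE 0.082) for Rrp12. Differences of about this size in single members were not detectable after adjustment.

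**Figure D3:**
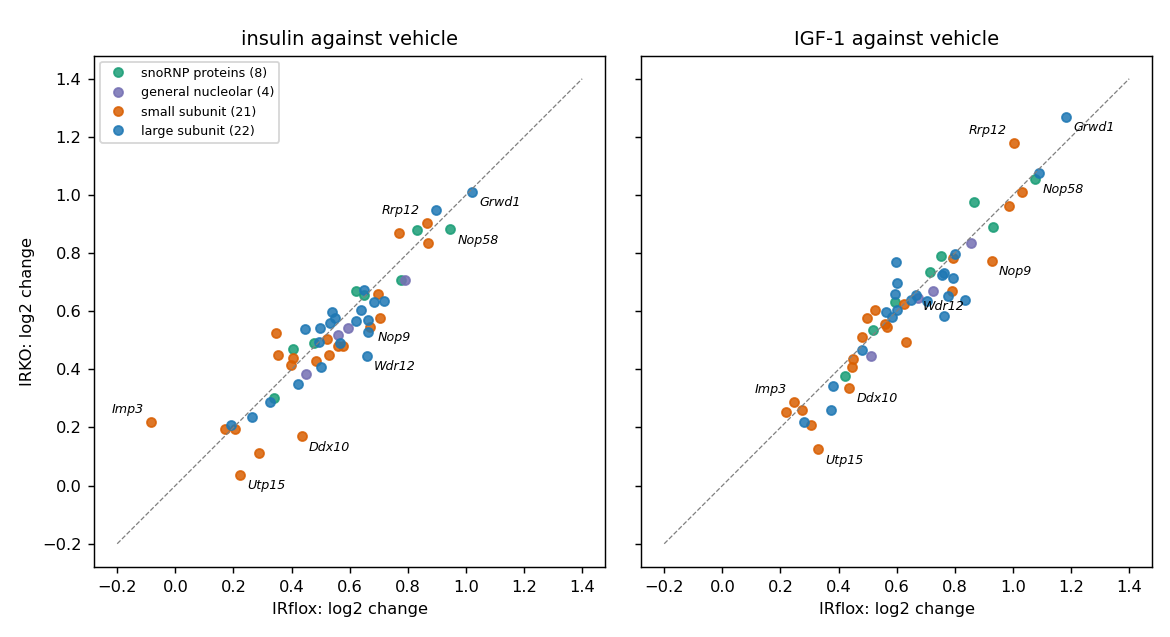
Log2 change against vehicle in IRKO (y axis) and IRflox astrocytes (x axis) for insulin (left) and IGF-1 (right), one point per member (55), with the line of equal change dashed. Most members lie along the line (r of 0.905 and 0.947), and Imp3, Ddx10 and Utp15 lie off it under insulin.

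Insulin, at the same 100 nM and the same 6 h, gave slightly lower levels than IGF-1 across the set. In IRKO astrocytes 53 members were lower under insulin than under IGF-1 (49.6% of all genes) and 7 passed the test, against 1.61% of all genes called lower. These were Nop56, Npm1, Ddx21, Nop9, Rrp12, Noc3l and Grwd1. In IRflox astrocytes 54 members were lower under insulin (51% of all genes) and 3 passed, Npm1, Imp3 and Nop9, against 1.1% of all genes. The 4 insulin libraries lay below all 4 IGF-1 libraries for 17 members in IRKO and 7 in IRflox astrocytes, beside 4.64% and 3.56% of all genes. None was called higher in either genotype. Averaged over the 2 genotypes, all 55 members had a negative log2 difference, as did 49.7% of all genes, and 22 passed edgeR's test (DESeq2 called 23), beside 4.29% of all genes called lower (4.58% by DESeq2).

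These differences were small beside the rise over vehicle. The median averaged difference was -0.10 log2 units, and single members ran from -0.24 (SE 0.039, edgeR adjusted p = 2.73e-05) for Nop9 to -0.02 (SE 0.036, edgeR adjusted p = 0.819) for Pno1. Grwd1 differed by -0.21 (SE 0.046, edgeR adjusted p = 0.00198), Rrp12 by -0.21 (SE 0.038, edgeR adjusted p = 0.000262) and Imp3 by -0.20 (SE 0.057, edgeR adjusted p = 0.022). Of the snoRNP proteins, Nop56 differed by -0.17 (SE 0.033, edgeR adjusted p = 0.000386) and Nop58 by -0.15 (SE 0.040, edgeR adjusted p = 0.0109), while Nolc1 at -0.07 (SE 0.029, edgeR adjusted p = 0.142) did not pass. Npm1 differed by -0.16 (SE 0.030, edgeR adjusted p = 0.000393). By class, the medians were -0.11 for snoRNP, -0.09 for general, -0.09 for small subunit and -0.11 for large subunit members.

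Nop9 had the largest averaged difference. In IRKO astrocytes Nop9 was at 74.1, 78.005, 66.97 and 71.1 CPM with insulin, 85.98, 86.2, 85.5 and 81.8 CPM with IGF-1 and 46.2, 48.02, 53.9 and 50.7 CPM with vehicle. The IRflox values of Nop9 were 84.3, 87.5, 87.7 and 87.6 CPM with insulin, 92.5, 109, 98.96 and 113 CPM with IGF-1 and 50.2, 52.01, 56.9 and 58.7 CPM with vehicle. Insulin libraries lay below IGF-1 libraries and above vehicle libraries in both genotypes. The log2 difference of Nop9 between insulin and IGF-1 was -0.23 (SE 0.055, edgeR adjusted p = 0.0133) in IRKO and -0.26 (SE 0.054, edgeR adjusted p = 0.00353) in IRflox astrocytes. The call of Nop9 in IRKO was lost without insulin replicate 3 (log2 difference -0.20). The IRKO call of Rrp12 was kept in all 31 alternatives. The averaged count of 22 was 14 without IRflox IGF-1 replicate 4 and 14 without IRflox insulin replicate 1, and 12 of the 22 kept their call in all 31 alternatives, among them Nop9, Grwd1, Rrp12, Pwp2, Nop56, Nop58, Fbl and Npm1. The count of 7 in IRKO was 3 to 4 without any one of insulin replicates 1, 2 and 3 and IGF-1 replicates 1, 3 and 4, and the count of 3 in IRflox was 1 without insulin replicate 1 or 2 and 5 without IGF-1 replicate 3, vehicle replicate 1, vehicle replicate 3 or IRKO vehicle replicate 2.

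**Figure D4:**
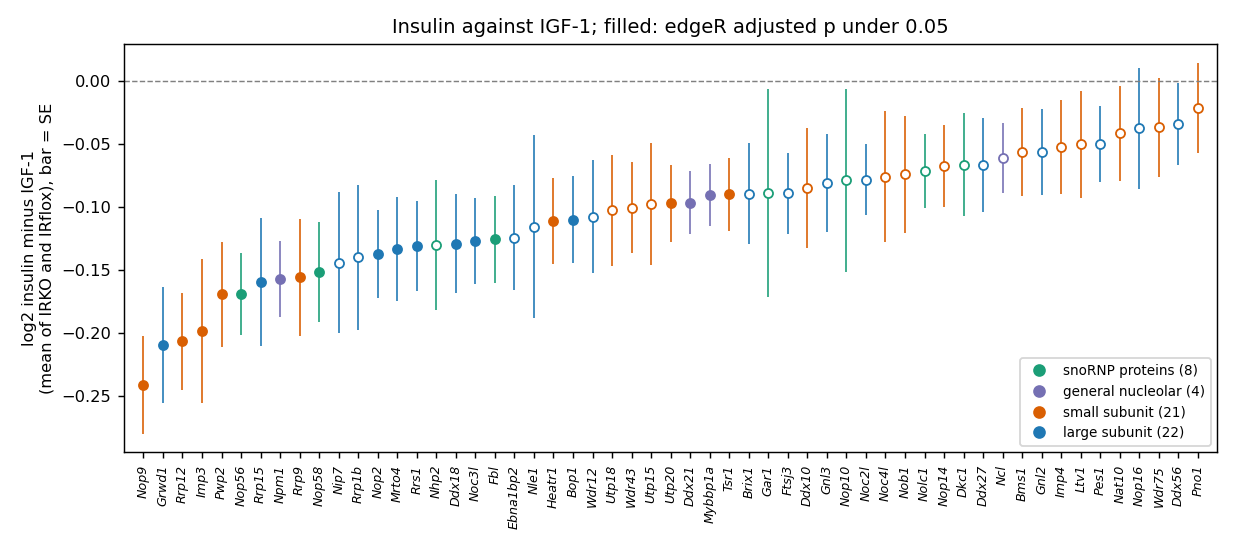
Log2 difference between insulin and IGF-1, averaged over IRKO and IRflox astrocytes (y axis, edgeR, bars are SE), for the 55 members in order (x axis). Filled points passed at an adjusted p under 0.05. All 55 lie below 0, from -0.24 for Nop9 to -0.02 for Pno1.

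Between genotypes the members tended to be slightly lower in IRKO astrocytes. Under insulin 45 members were lower in IRKO (49.3% of all genes) and 11 passed edgeR's test, beside 5.53% of all genes called lower. Under IGF-1 45 were lower (50.3% of all genes) and 4 passed, beside 3.15%, and under vehicle 40 were lower (50.3%) and 3 passed, beside 4.1%. The IRKO libraries lay below all IRflox libraries for 14 members under insulin, 6 under IGF-1 and 5 under vehicle, beside 7.8%, 6.58% and 5.78% of all genes. None was called higher under any treatment. The members' median log2 difference was -0.07 under insulin, -0.08 under IGF-1 and -0.05 under vehicle. All 8 snoRNP proteins had negative differences under each treatment, with class medians of -0.08, -0.09 and -0.12 in that order, and the small subunit medians were -0.04, -0.05 and -0.02.

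Nolc1 (chromosome 19, 46075863 to 46085530, plus strand) was called lower in IRKO under all 3 treatments. Nolc1 in IRKO astrocytes was at 93.8, 92.8, 95.05 and 95.3 CPM with insulin, 97.003, 96.5, 99.5 and 105 CPM with IGF-1 and 57.7, 62.2, 61.5 and 57.5 CPM with vehicle. In IRflox astrocytes Nolc1 was at 107, 107, 106 and 101 CPM with insulin, 103, 115, 108 and 113 CPM with IGF-1 and 67.5, 65.8, 69.6 and 64.7 CPM with vehicle. IRKO libraries lay below IRflox libraries under insulin and under vehicle and overlapped them under IGF-1. The difference of Nolc1 was -0.16 (SE 0.042, edgeR adjusted p = 0.0102) under insulin, -0.14 (SE 0.041, edgeR adjusted p = 0.0301) under IGF-1 and -0.16 (SE 0.044, edgeR adjusted p = 0.014) under vehicle. Nop9, whose values are given above, differed by -0.26 (SE 0.055, edgeR adjusted p = 0.00134) under insulin and -0.29 (SE 0.054, edgeR adjusted p = 0.000423) under IGF-1. Under vehicle its difference was -0.13 (SE 0.059, edgeR adjusted p = 0.175) and did not pass. Mybbp1a differed by -0.15 (SE 0.035, edgeR adjusted p = 0.00459) under insulin and -0.12 (SE 0.035, edgeR adjusted p = 0.0283) under IGF-1, and Ncl by -0.14 (SE 0.039, edgeR adjusted p = 0.0152) and -0.14 (SE 0.039, edgeR adjusted p = 0.0198).

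Wdr12 had the largest difference under insulin. The IRKO values of Wdr12 were 37.4, 37.8, 39.9 and 44.97 CPM with insulin, 44.9, 47.8, 45.3 and 46.9 CPM with IGF-1 and 32.8, 28.9, 28.7 and 27.01 CPM with vehicle. Wdr12 in IRflox astrocytes was at 43.5, 47.5, 52.1 and 52.3 CPM with insulin, 47.5, 47.3, 50.4 and 51.2 CPM with IGF-1 and 31.6, 31.5, 32.8 and 27.9 CPM with vehicle. The IRKO and IRflox groups overlapped under each treatment. The log2 difference of Wdr12 was -0.29 (SE 0.064, edgeR adjusted p = 0.00191) under insulin and -0.09 (SE 0.063, edgeR adjusted p = 0.491) under IGF-1, where it did not pass. The other members called lower under insulin were Nop58 (-0.19), Wdr75 (-0.20), Ddx10 (-0.23), Tsr1 (-0.13), Noc3l (-0.18) and Brix1 (-0.19). Under vehicle the other 2 were Utp18, with -0.21 (SE 0.066, edgeR adjusted p = 0.0376), and Imp3, with -0.26 (SE 0.082, edgeR adjusted p = 0.0379).

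The counts between genotypes depended on single libraries. Of the 11 calls under insulin, Nolc1, Nop9, Mybbp1a and Wdr12 were kept in all 31 alternatives, and the count was 5, 6 and 7 without IRflox insulin replicate 3, IRKO insulin replicate 2 and IRflox insulin replicate 4. Under IGF-1 the call of Nop9 alone was kept in all 31. The count under IGF-1 was 1 without IRKO IGF-1 replicate 2, IRflox IGF-1 replicate 2 or IRflox IGF-1 replicate 4 and 2 without IRKO IGF-1 replicate 1. Nolc1, Ncl and Mybbp1a were each lost without IRKO IGF-1 replicate 2, IRflox IGF-1 replicate 2 or IRflox IGF-1 replicate 4, where the differences were -0.12, -0.12 and -0.13 for Nolc1. Nolc1 and Ncl were also lost without IRKO IGF-1 replicate 1, Nolc1 without IRKO IGF-1 replicate 3 and Mybbp1a without IRKO IGF-1 replicate 4. Of the 3 calls under vehicle none was kept in all 31. Nolc1 under vehicle was lost without IRKO vehicle replicate 1 (-0.15), IRKO vehicle replicate 4 (-0.14) or IRflox vehicle replicate 3 (-0.14). That count was 0 without IRflox vehicle replicate 3, 1 without IRflox vehicle replicate 2 or IRKO vehicle replicate 1, 2 or 4, and 5 without IRflox vehicle replicate 1.

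Markers of other cell types differed between genotypes in both directions, and microglial genes were higher in IRKO. Of 10 genes, 7 were called higher in IRKO under insulin, 5 under IGF-1 and 9 under vehicle, and none was lower, beside 4.94%, 3.62% and 3.76% of all genes called higher. Their summed level was 1050.3 to 1087 CPM in IRKO and 871 to 937 CPM in IRflox libraries under insulin. Under IGF-1 it was 1027 to 1107 and 905 to 939.8 CPM, and under vehicle 1239 to 1268 and 1012 to 1065 CPM, in that order of genotypes. No marker of the 10 was at 0 in any library, and P2ry12 was lowest at a mean of 1.15 CPM. Itgam shares 68.7% of its exon length with Gm49368 on the same strand. The sum of the 8 neuronal genes was lower in IRKO without overlap, at 136 to 144 CPM in IRKO and 162 to 171 CPM in IRflox libraries under insulin, 137 to 147 and 158 to 169 CPM under IGF-1, and 117 to 129 and 138 to 139.6 CPM under vehicle. Of those 8 genes, 2 were called lower and 1 higher under insulin, 2 lower under IGF-1 and 2 lower under vehicle. Over all genes 5.53%, 3.15% and 4.1% were called lower in that order. Stmn2 and Map2 made most of the sum, at means of 75.1 and 49.0 CPM of 140 CPM in IRKO insulin libraries. The sum of the 8 oligodendrocyte lineage genes, given above, was higher in IRKO without overlap under insulin and IGF-1. Of 8 fibroblast and mural genes, whose sums overlapped between genotypes, Lum was called lower in IRKO under each treatment (-2.15, -1.73 and -1.44 under insulin, IGF-1 and vehicle) and Dcn under vehicle (-1.05). Lum and Dcn were named after their values were seen. The part of these cells in the members' differences was not tested.

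**Figure D5:**
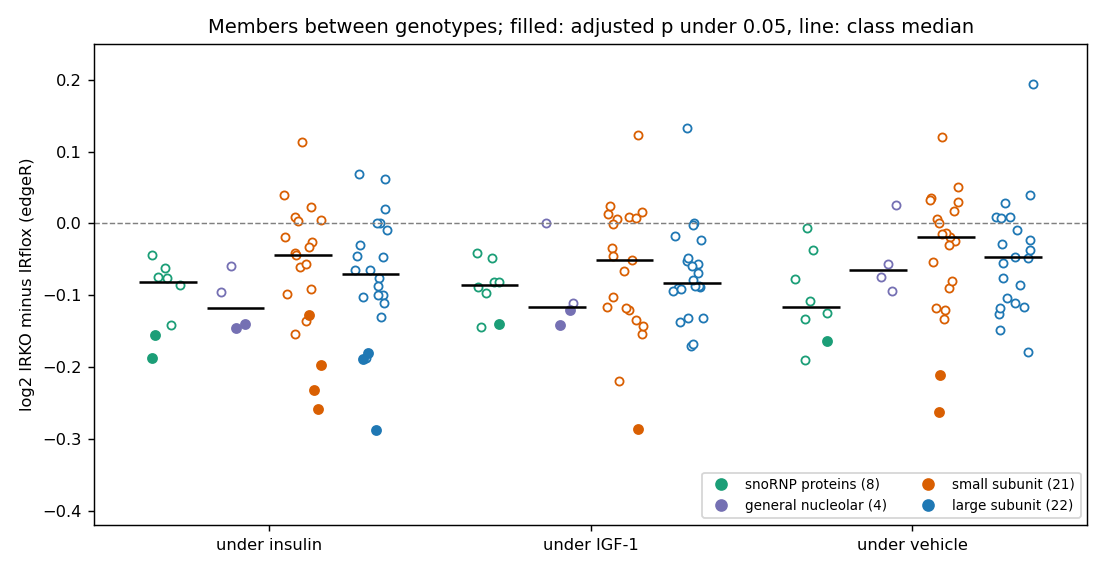
Log2 difference between IRKO and IRflox astrocytes (y axis, edgeR) under insulin, IGF-1 and vehicle (x axis), one point per member, by class. Filled points passed at an adjusted p under 0.05 (11, 4 and 3 members) and lines are class medians, all of which lie below 0.

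Other genes of the same pathway moved the same way, with smaller medians. Of 38 further small subunit factors, 31 and 33 in IRKO and 30 and 33 in IRflox astrocytes rose with insulin and IGF-1, and Ddx52 fell in each comparison. Their medians were 0.30 with insulin and 0.32 with IGF-1 in IRKO astrocytes and 0.30 and 0.36 in IRflox astrocytes. Bysl, known for late steps of small subunit assembly, changed by 0.72 and 0.80 in IRKO astrocytes and 0.67 and 0.77 in IRflox astrocytes, and the methyltransferase Emg1 by 0.50 and 0.64 in IRKO astrocytes and 0.61 and 0.69 in IRflox astrocytes. Of 38 further large subunit factors, 26 and 28 in IRKO and 29 and 30 in IRflox astrocytes rose and 1 fell in each (Las1l with insulin in IRKO, and Nop53 in the other 3 comparisons), with medians of 0.27 with insulin and 0.37 with IGF-1 in IRKO astrocytes and 0.30 and 0.36 in IRflox astrocytes. Ppan changed by 0.78 and 0.84 in IRKO astrocytes and 0.65 and 0.91 in IRflox astrocytes and Nifk by 0.65 and 0.80 in IRKO astrocytes and 0.77 and 0.96 in IRflox astrocytes. Rsl1d1 changed by 0.64 and 0.70 in IRKO astrocytes and 0.60 and 0.76 in IRflox astrocytes.

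Of 15 genes for RNA polymerase I and its initiation factors, 11 and 9 in IRKO and 9 and 11 in IRflox astrocytes rose, and the termination factor Ttf1 fell in each comparison. The catalytic subunits Polr1a and Polr1b changed by 0.69 and 0.78 in IRKO astrocytes and 0.73 and 0.73 in IRflox astrocytes and by 0.75 and 0.93 in IRKO astrocytes and 0.81 and 0.98 in IRflox astrocytes. Rrn3, which brings growth signals to the polymerase, changed by 0.39 and 0.46 in IRKO astrocytes and 0.48 and 0.47 in IRflox astrocytes, and Polr1e by 0.63 and 0.63 in IRKO astrocytes and 0.77 and 0.88 in IRflox astrocytes (largest edgeR adjusted p over these 4 genes 2.84e-09). Ubtf, the factor that holds ribosomal DNA open, had log2 changes of 0.10 and 0.06 in IRKO astrocytes and 0.04 and 0.00 in IRflox astrocytes, and passed only with insulin in IRKO astrocytes (edgeR adjusted p = 0.0436). Ubtf, Ttf1, Ddx52, Las1l and Nop53 were named after their values were seen, and their calls were not tried under the alternatives.

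Transcripts of the MYC network did not rise with the members. Of 11 genes, 2 rose (Mlx and Mxd3) and 7 fell in each of the 4 comparisons. Myc itself averaged 31.5 ± 2.13 CPM under insulin, 33.7 ± 1.398 CPM under IGF-1 and 41.1 ± 1.76 CPM under vehicle in IRKO astrocytes (SD, n = 4 each). In IRflox astrocytes it averaged 33.1 ± 2.92, 33.8 ± 2.97 and 42.8 ± 2.44 CPM under the same treatments. Its log2 changes were -0.39 and -0.29 in IRKO astrocytes and -0.37 and -0.34 in IRflox astrocytes (largest edgeR adjusted p 0.000263). Of the genes for antagonists of MYC, Mxi1 changed by -1.24 and -1.5 in IRKO astrocytes and -1.24 and -1.42 in IRflox astrocytes, Mxd4 by -0.74 and -0.89 in IRKO astrocytes and -0.79 and -1.03 in IRflox astrocytes, Mxd1 by -0.75 and -0.72 in IRKO astrocytes and -0.86 and -0.92 in IRflox astrocytes and Mnt by -0.49 and -0.51 in IRKO astrocytes and -0.66 and -0.64 in IRflox astrocytes, each past edgeR's threshold. Not all such genes fell, as Mxd3, another MXD gene, was among the 2 that rose. Mxd3 averaged 15.6, 18.1 and 12.5 CPM under insulin, IGF-1 and vehicle in IRKO astrocytes and 16.8, 18.3 and 13.1 CPM in IRflox astrocytes. The counts give transcript levels at 6 h, and protein levels and earlier times were not analysed here.

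Cell cycle genes did not follow the members as a group. Of 16, 3 rose and 1 fell with insulin and 3 rose and 3 fell with IGF-1 in IRKO astrocytes, against 3 and 0 with insulin and 6 and 1 with IGF-1 in IRflox astrocytes. The list medians were -0.03 with insulin and 0.00 with IGF-1 in IRKO astrocytes and 0.06 and 0.02 in IRflox astrocytes. Ccnd1, the cyclin of early growth factor response, changed by 0.67 and 0.88 in IRKO astrocytes and 0.70 and 0.90 in IRflox astrocytes (largest edgeR adjusted p 1.84e-19). It shares 23.4% of its exon length with LTO1 on the opposite strand. Astrocyte markers were mixed: of 12, 5 rose and 4 fell with insulin in IRKO and 5 rose and 3 fell in IRflox astrocytes. With IGF-1, 3 rose and 5 fell in IRKO and 3 rose and 6 fell in IRflox astrocytes. Their summed level under IGF-1 lay below vehicle without overlap, at 4537 to 4577 CPM under IGF-1 and 4787 to 5047 CPM under vehicle in IRKO libraries, and 4207 to 4351 and 4568 to 4849 CPM in IRflox libraries. Under insulin the sums overlapped vehicle. The part of this shift in the members' rise was not tested.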

How the data were processed

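Gene counts were taken as the authors deposited them, one table of raw counts for each of the 24 libraries, with no normalization. Per the labels' protocols, RNA with a RIN above 7 was made into poly-A, non-stranded libraries and read as pairs of 150 bases. The submitters' processing notes name STAR 2.7.7a, R 4.0.4, edgeR, DESeq2 and mm10. Neither the counting program nor the annotation release is given in the sources used here. The last 3 lines of each table carry no gene name and did not enter library sizes. Going by the read totals in these lines, 14.5% to 23.2% of a library's reads lay outside genes. In each library the summed gene counts exceeded the reads in genes, with 17245788 counts and 16439203 reads in IRflox vehicle replicate 1. Some reads may therefore have been counted for several genes.

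Genes were kept by filterByExpr (minimum count 10, total 15), scaled by TMM and tested over all 24 libraries with the quasi-likelihood test of edgeR 4.0.16 (limma 3.58.1, R 4.3.3), with Benjamini-Hochberg adjustment over all 15599 genes and calls at an adjusted p under 0.05. DESeq2 1.42.0 was an alternative, with RLE scaling, library size alone, other filters, fits of the compared groups alone, a replicate block and each library left out. CPM values use TMM library sizes. The biological coefficient of variation was 4.92%. The fitting was tested on simulated data. Gene positions, exon lengths and exon overlaps come from GENCODE M21 on mm10, and reads in exons shared with an opposite-strand gene cannot be assigned without strand. Exon length joins the exons of all annotated transcripts of a gene and can exceed the length of any single transcript.

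The members and lists were chosen with earlier results of these data known. Members named in the text were, per class, the 3 largest and 2 smallest mean responses, a list of central factors, every member that did not pass against vehicle, and up to 6 lowest p in each other comparison. Other members are named by role, and genes of other lists by up to 4 lowest p per list.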

Additional observations from a re-analysis of the deposited data

Results flagged for a closer look

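In 12 of 198 groups of 4 libraries examined, 1 library of a member stood apart by Dixon's criterion, with a gap to its nearest neighbour too large for the range of 4 values, and chance alone gives about 5%. Nolc1 was at 101 CPM in IRflox insulin replicate 4, below the 106 to 107 CPM of the other 3 libraries. In IRKO insulin replicate 2, Npm1 was at 300.5 CPM, below the range of 324 to 329 CPM of its group. IRflox IGF-1 replicate 4 held Ddx21 at 247 CPM, above 228 to 231 CPM in the rest of its group. Mybbp1a was at 282 CPM in IRKO insulin replicate 4, below the 300.3 to 304 CPM of the other 3 libraries. In IRflox IGF-1 replicate 4, Heatr1 was at 90.98 CPM, above the range of 85.3 to 85.8 CPM of its group. IRKO IGF-1 replicate 1 held Utp18 at 48.04 CPM, above 42.1 to 43.04 CPM in the rest of its group. Nop9 was at 84.3 CPM in IRflox insulin replicate 1, below the 87.5 to 87.7 CPM of the other 3 libraries. In IRKO IGF-1 replicate 4, Nop9 was at 81.8 CPM, below the range of 85.5 to 86.2 CPM of its group. IRflox vehicle replicate 3 held Nob1 at 26.9 CPM, above 22.6 to 23.2 CPM in the rest of its group. Gnl3 was at 86.6 CPM in IRflox insulin replicate 4, above the 72.3 to 74.5 CPM of the other 3 libraries. In IRflox IGF-1 replicate 1, Rrp15 was at 28.3 CPM, below the range of 31.995 to 32.6 CPM of its group. IRflox IGF-1 replicate 1 held Grwd1 at 36.9 CPM, below 41.8 to 42.7 CPM in the rest of its group.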

How the results depend on the processing

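No value recomputed under the 31 alternatives changed sign where it was called. Utp15 with insulin in IRKO astrocytes, which did not pass, was at -0.02 without vehicle replicate 4 and -0.01 without insulin replicate 1. These recomputed values cover the counts, the members and the genes of other lists named by the rule, and not Ubtf, Ttf1, Ddx52, Las1l, Nop53, Mlx, Mxd3, Lum and Dcn. With each library left out in turn, the members called higher numbered 50 to 53 with insulin and 54 to 55 with IGF-1 in IRKO astrocytes and 52 to 54 and 54 to 55 in IRflox astrocytes, and the small minus large subunit median was -0.115 to -0.072, -0.132 to -0.090, -0.140 to -0.064 and -0.156 to -0.110 in that order. That difference was -0.14 with IGF-1 in IRKO astrocytes without the members that share exons. Members lower under insulin than under IGF-1 numbered 3 to 8 in IRKO, 1 to 5 in IRflox and 14 to 25 averaged with 1 library left out. In IRKO they were 4 with library size alone and 11 with the compared groups alone, and in IRflox 5 with DESeq2, with no filter or with the compared groups alone. Members lower in IRKO than in IRflox numbered 5 to 12 under insulin, 1 to 4 under IGF-1 and 0 to 5 under vehicle with 1 library left out, and 0 to 1 were higher under IGF-1. Under vehicle they were 5 with DESeq2 and 1 with the compared groups alone. The cause of these shifts was not tested. Same-numbered libraries of different groups did not deviate together (median r 0.007 over 60 pairs, against -0.002 over 180 pairs with different numbers, and 4 of 24 libraries matched their own number best). This gave no sign of pairing by number. It cannot show whether same-numbered libraries came from one culture or batch, which the labels do not say. With a replicate block the members called higher were 53 and 54 in IRKO and 54 and 55 in IRflox astrocytes with insulin and IGF-1, and 12, 4 and 3 were lower in IRKO under insulin, IGF-1 and vehicle. No difference in response between genotypes passed after adjustment, and the part of depth (15429688 gene counts or more per library) in that was not tested.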
